A study of Mus musculus with 4 samples.

Results

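Histone genes encode the proteins that package DNA into nucleosomes, and 37 of them, read by 47 probes, were followed here in mouse kidney ureteric buds exposed to angiotensin II (AngII). They were 37 of the 17299 genes with a named probe on the array. Members were chosen by gene symbol: every H1, H2A, H2B, H3 or H4 gene of the numbered families with a probe, with H2az1, H2ax, H3f3a and H3f3b. The group was put forward with its AngII ratios known, so these ratios are given as a description, with no test. By the same symbol rule the RefSeq gene table holds 74 histone genes, so the array covers only some of them.

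Intact ureteric buds, the epithelial outgrowths that branch into the collecting ducts and ureter, were cultured in Matrix gel in DMEM/F12 that held 10% serum and the growth factors GDNF and HGF, each at 100 ng/ml. They were exposed to AngII at 1e-05 M or to media alone for 6 h, and the culture medium and both factors were common to the treated and the control buds. Mouse strain, genotype and embryonic age were not stated in the labels. Each of 4 two-colour arrays compared an AngII RNA with a media RNA, and AngII carried Cy5 on 2 arrays and Cy3 on the remaining 2. The labels number the RNA pairs 1 and 2 without naming separate animals or cultures.

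No difference beyond array noise was found between the ratios of the numbered pairs. Across the 15006 features tested, limma called 0 features different between the pairs, against 1 at an unadjusted p under 0.05. That fit leaves the dye effect in the residual, so it could hardly call a difference. With the dye as a term in the fit limma again called 0, with 768 features (5.12%) at an unadjusted p under 0.05. The pairs were therefore counted as 1 sample, so no p below measures the spread between independent pairs, and no value has a check in an independent pair. For the limma calls of AngII over media, the dye-swapped arrays of a number were averaged first. Their p measures the spread between these averages, from which the dye difference is averaged out. No spot was saturated, and between 19045 and 21936 of 41174 probes were well above background in a channel. Of 12 ureteric bud markers 11 were tested, among them Gata3, Pax2, Emx2 and Wnt11, and Ret was not well above background. Limma called 39.1% of all features tested higher and 38.1% lower, and the marker counts stand beside these shares. Of the 7 erythroid markers tested, 7 rose by limma, with log2 ratios of 0.43 to 2.78 and a median of 2.21. Leukocyte markers rose in 3 of 4 tested genes (Ptprc 0.64, Cd74 0.57, Tyrobp 0.33) and fell in 1 (C1qa -0.19), with a median of 0.45. Of the 11 bud markers 5 rose and 4 fell, from -0.59 for Krt8 to 1.53 for Wnt9b. Endothelial markers rose in 1 and fell in 3 of 5, and those of stroma and mesenchyme rose in 4 and fell in 2 of 7. The part of these shifts in the histone ratios was not tested.

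Most core and linker histones come from genes packed in clusters, which in the mouse lie mainly on chromosomes 13 and 3. Their transcripts are made in S phase as DNA is copied, carry no introns and end in a conserved stem-loop in place of a poly(A) tail. The stem-loop is bound by Slbp, and the U7 small nuclear ribonucleoprotein guides the cut that makes it. Variant histones such as those of H2az1, H3f3a, H3f3b and H1f0 come from single genes elsewhere, are polyadenylated and are made outside S phase too. The cDNA was primed with T16N2, read here as an oligo-dT primer, and which transcripts of a clustered gene were copied from it was not tested. In bulk RNA, fewer cells making a transcript and less transcript per cell cannot be told apart.

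The promoter stretches of the clustered linker histone genes H1f1 to H1f5 and of 3 H4 genes are shown because H1 and H4 held 8 of the 9 histone genes lower by at least 1.5-fold, and H1f2 was the H1 gene with the opposite sign. Each line gives the 150 bases before the annotated start, 5′ to 3′, from RefSeq on GRCm38.p6. Capitals mark exact matches, on either strand, to CCAAT (read by the factor NF-Y), TATAAA (the TATA box), AAACACA (an element of H1 promoters) or GGTCCG (part of the HINFP site of H4 promoters). AAACACA and GGTCCG were added to the search after the ratios had been seen.
H1f1: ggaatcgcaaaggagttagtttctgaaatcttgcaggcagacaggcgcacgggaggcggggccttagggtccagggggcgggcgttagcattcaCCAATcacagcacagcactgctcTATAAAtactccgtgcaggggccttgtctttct
H1f2: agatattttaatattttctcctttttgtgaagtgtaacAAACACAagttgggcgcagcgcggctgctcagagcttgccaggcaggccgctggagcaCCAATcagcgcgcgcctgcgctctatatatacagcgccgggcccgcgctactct
H1f3: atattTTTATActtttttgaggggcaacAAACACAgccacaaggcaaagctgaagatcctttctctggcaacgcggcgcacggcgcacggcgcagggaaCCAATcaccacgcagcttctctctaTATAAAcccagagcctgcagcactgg
H1f4: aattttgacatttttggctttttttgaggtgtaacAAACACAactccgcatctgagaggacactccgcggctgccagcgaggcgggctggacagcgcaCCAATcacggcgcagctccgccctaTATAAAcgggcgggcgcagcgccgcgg
H1f5: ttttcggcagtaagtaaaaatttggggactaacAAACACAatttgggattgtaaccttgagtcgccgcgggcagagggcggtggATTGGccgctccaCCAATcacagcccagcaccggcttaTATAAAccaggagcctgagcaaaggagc
H4c1: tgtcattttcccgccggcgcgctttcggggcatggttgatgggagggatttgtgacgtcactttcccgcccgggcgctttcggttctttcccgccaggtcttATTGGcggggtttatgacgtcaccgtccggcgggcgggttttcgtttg
H4c4: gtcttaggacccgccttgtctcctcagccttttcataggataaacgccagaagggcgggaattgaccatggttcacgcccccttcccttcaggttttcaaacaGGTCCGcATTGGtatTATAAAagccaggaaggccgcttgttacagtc
H4c6: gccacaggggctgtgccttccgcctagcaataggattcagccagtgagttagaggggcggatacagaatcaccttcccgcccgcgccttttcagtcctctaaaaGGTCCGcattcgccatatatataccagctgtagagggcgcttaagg
The H1 stretches lie at chr13:23763518-23763667 on the plus strand for H1f1, chr13:23738657-23738806 on the plus strand for H1f2, chr13:23554882-23555031 on the plus strand for H1f3, chr13:23622559-23622708 on the minus strand for H1f4 and chr13:21780626-21780775 on the minus strand for H1f5. Those of the H4 genes lie at chr13:23761250-23761399 on the minus strand for H4c1, chr13:23581418-23581567 on the plus strand for H4c4 and chr13:23551669-23551818 on the minus strand for H4c6.

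Across the 29 clustered genes with a probe, dim probes included, the median log2 ratio of AngII over media was -0.40, which is 1.32-fold lower under AngII. Over the 23 clustered genes above background it was -0.43. Over all 17299 genes the median was 0.0032. Clustered genes of the H4 and H1 types were lowest, with medians of -1.34 over 4 genes and -0.87 over 6 genes. H2A followed with -0.42 over 9 genes, and H3 stood at 0.26 over 3 genes. Without the dim genes, 1 of H1 and 2 of H2A, the H1 and H2A medians were -0.88 and -0.43. H2B stood at -0.03 over 7 genes, 3 of them not above background, and at -0.32 over the other 4. The 6 genes outside the clusters had a median of -0.29. By the brightest probe of each gene, ratios ran from 2.99-fold lower for H1f4 to 1.40-fold higher for H3f3b.

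Of the 37 genes, 29 had a probe well above background on all 4 arrays in at least 1 of the RNAs. The other 8 were H1f6, H1f7, H1f8, H2ac6, H2ac8, H2bc4, H2bc6 and H2bc23, with log2 ratios between -0.08 and 0.06. H1f6, H1f7 and H1f8 encode linker histones of male and female germ cells. By size, 9 of the 29 genes above background were at least 1.5-fold lower under AngII, against 5.4% of all features tested. None of the 29 was at least 1.5-fold higher, against 5.49% of features. Of the 29, 18 were below 0 on all 4 arrays (28.1% of features were) and 5 above 0 on all 4 (30.9% of features).

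The genes were put forward from this contrast, so nothing is read from these counts. The count of 9 was 8 with probes averaged, where H1f3 dropped out, and 10 with processed signals, where H3c1 joined. It was 10 on the arrays with AngII in Cy5 and 16 on those with AngII in Cy3, with 2 and 0 genes at least 1.5-fold higher. In the authors' deposited table it was 9, with 1 gene at least 1.5-fold higher (H3f3b, 0.598). In the values below, the 4 arrays are given in the order replicate 1 with AngII in Cy5, replicate 1 with AngII in Cy3, replicate 2 with AngII in Cy5 and replicate 2 with AngII in Cy3, each SD is over the 4 arrays, and every ratio is log2 of AngII over media.

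**Figure D1:**
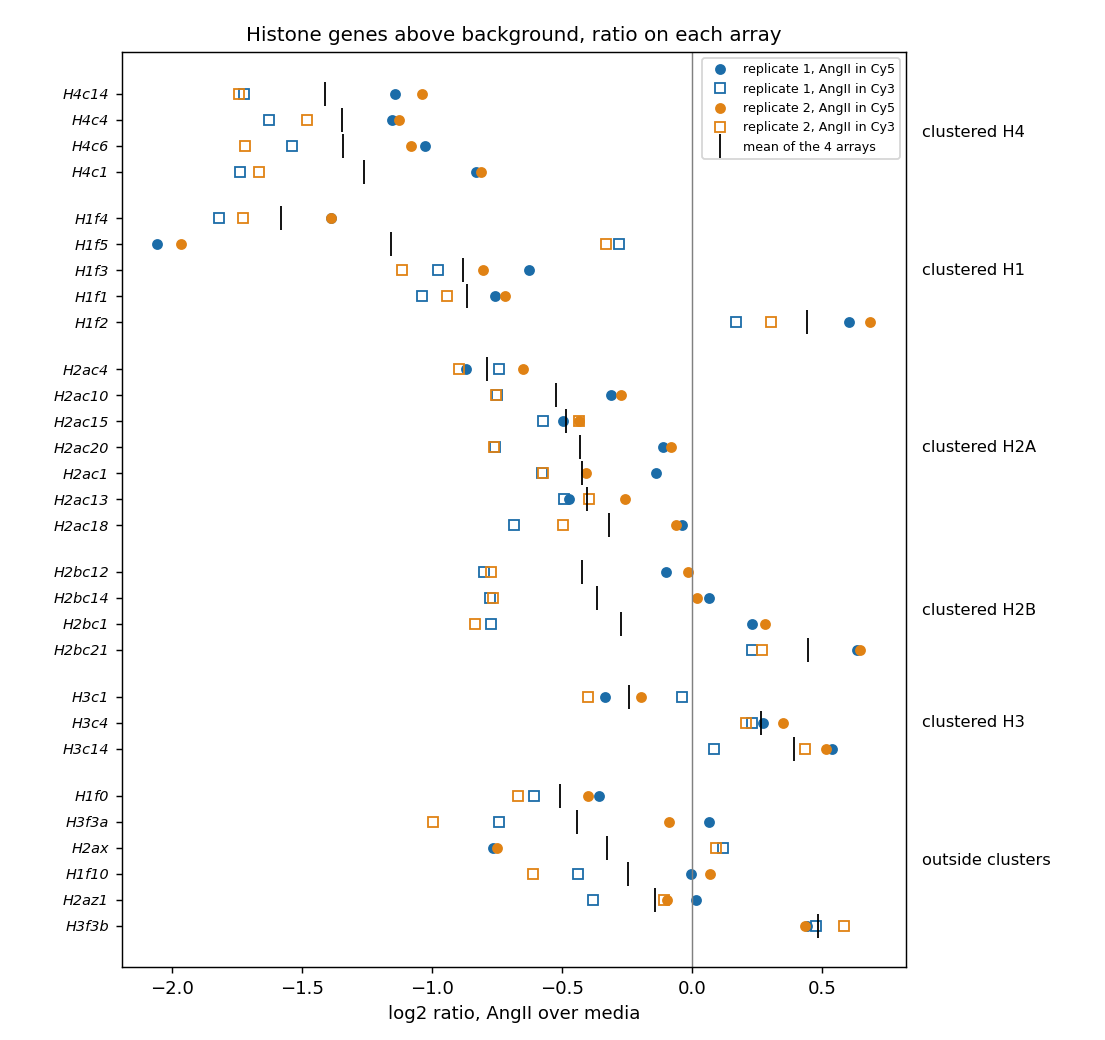
The log2 ratio of AngII over media (x axis) of each of the 29 histone genes above background (y axis), by type, for the 4 arrays (filled circles, AngII in Cy5; open squares, AngII in Cy3; blue, replicate 1; orange, replicate 2) and their mean (black bar). The 4 H4 genes lie between -1.74 and -0.81 on every array, and H1f2, H2bc21, H3c4, H3c14 and H3f3b lie above 0 on every array.

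Histone H4 pairs with H3 to form the core tetramer of the nucleosome, and its many gene copies encode the same protein. H4c14, in the chromosome 3 cluster, had ratios of -1.14, -1.72, -1.04 and -1.74, with a mean of -1.41 ± 0.37 (SD), or 2.66-fold lower. H4c4, on chromosome 13, had -1.15, -1.63, -1.13 and -1.48, with a mean of -1.35 ± 0.25, and its other probe had a mean of -1.83. All of these values lay below -1. H4c6 had -1.03, -1.54, -1.08 and -1.72, with a mean of -1.34 ± 0.34. H4c1 had -0.83, -1.74, -0.81 and -1.66, with a mean of -1.26 ± 0.51. Every H4 gene was lower on every array, and lower still on the arrays with AngII in Cy3. The 4 means span 0.15 log2 units. Each SD over the 4 arrays includes the dye difference, and the SD between the 2 replicates was 0.03 to 0.08. With AngII in Cy5, H4c1 was nearer to 0 than the other H4 genes. H4 copies are near-identical in their coding sequence, so the 4 genes may not be 4 separate readings. How many gene copies each probe reads was not tested.

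Linker histone H1 binds where DNA enters and leaves the nucleosome, and its clustered genes encode somatic subtypes that differ in their tails. H1f4 had the lowest mean of any histone gene when the brightest probe stood for a gene, at -1.39, -1.82, -1.39 and -1.72, with a mean of -1.58 ± 0.23, or 2.99-fold lower. With the probes of a gene averaged, H4c4 was as low (-1.59). In its ranking over all 15006 features tested, from the lowest ratio up, H1f4 was number 23. H1f5 had -2.06, -0.28, -1.97 and -0.33, with a mean of -1.16 ± 0.98. Its sign was the same on all 4 arrays, but its size depended on the dye and repeated closely between the replicates of one orientation.

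H1f3 had ratios of -0.63, -0.97, -0.80 and -1.12, with a mean of -0.88 ± 0.21, on its probe above background. The other H1f3 probe was not well above background and gave 0.12, and the mean of both was -0.38. With processed signals H1f3 was at -1.41 and H1f1 at -1.29. H1f1 had -0.76, -1.04, -0.72 and -0.94, with a mean of -0.86 ± 0.15. These genes were thus lower on all 4 arrays. H1f2, in the same cluster, went the other way. Its ratios were 0.60, 0.17, 0.69 and 0.30, with a mean of 0.44 ± 0.24, or 1.36-fold higher, and its 4 values do not overlap with those of any other clustered H1 gene above background.

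H2A and H2B form the dimers that flank the tetramer in the nucleosome core. The 7 clustered H2A genes above background were all lower on all 4 arrays, with means from -0.79 to -0.32. H2ac4 was lowest, with -0.87, -0.74, -0.65 and -0.90 and a mean of -0.79 ± 0.12. H2ac10 had -0.31, -0.75, -0.27 and -0.75, with a mean of -0.52 ± 0.27, and its other probe gave -0.40. Apart from H2ac4, no H2A gene reached a 1.5-fold difference. H2ac15 had -0.49, -0.57, -0.44 and -0.43, with a mean of -0.48 ± 0.07. H2ac20 had -0.11, -0.76, -0.08 and -0.76, with a mean of -0.43 ± 0.38. Both dye orientations were lower for these genes, by like amounts for H2ac15 and by unlike amounts for H2ac20.

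H2ac1, which encodes a testis form of H2A, had ratios of -0.14, -0.58, -0.41 and -0.57, with a mean of -0.42 ± 0.21. Its probe was well above background in both channels of all 4 arrays. Since H2A genes are near-identical copies, which genes' transcripts it read was not tested. H2ac13 had -0.47, -0.49, -0.26 and -0.40, with a mean of -0.40 ± 0.11. H2ac18 had -0.04, -0.68, -0.06 and -0.50, with a mean of -0.32 ± 0.32. Values of these H2A genes overlap from array to array. Their spread over the 4 arrays includes the dye difference, and their order was not tested.

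Among H2B genes the sign was mixed. H2bc21, in the chromosome 3 cluster, was higher, with 0.64, 0.23, 0.65 and 0.27 and a mean of 0.45 ± 0.23. H2bc12 was lower, with -0.10, -0.80, -0.01 and -0.77 and a mean of -0.42 ± 0.42, and its other probe had a mean of -0.43 from 0.03, -0.93, 0.24 and -1.05. The lower H2B values thus came mainly from the arrays with AngII in Cy3. H2bc14 had 0.07, -0.78, 0.02 and -0.76, with a mean of -0.36 ± 0.47. H2bc1, which encodes a testis form of H2B, had 0.23, -0.77, 0.28 and -0.84, with a mean of -0.27 ± 0.61. Both genes changed sign with the dye orientation, so their means carry no settled direction.

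H3 is the partner of H4 in the tetramer and carries many of the lysines that are methylated or acetylated in chromatin. H3c14, on chromosome 3, had ratios of 0.54, 0.08, 0.51 and 0.44, with a mean of 0.39 ± 0.21. H3c4 had 0.27, 0.23, 0.35 and 0.21, with a mean of 0.26 ± 0.06. These genes were higher on all 4 arrays, by 1.31-fold and 1.20-fold. H3c1 was lower, with -0.34, -0.04, -0.19 and -0.40 and a mean of -0.24 ± 0.16. With Agilent's processed signals H3c1 was at -0.77, past 1.5-fold lower. Its mean log2 intensity was 6.70, near the 6.22 of the dim gene H1f7, beside 13.94 for H3c4 and 15.20 for H3c14. The sign thus differed among the H3 genes, with H3c1 on the side of the H4 genes and H3c14 and H3c4 on the other.

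Among the 18 genes above background on chromosome 13, 4 of 17 adjacent pairs differed in sign, all of them at H3c4 or H1f2. Of the 24 genes with a probe there, H3c4 (0.26) is listed next to H4c4 (-1.35), and H1f2 (0.44) next to H2ac4 (-0.79). Their median was -0.41, beside -0.32 for the 5 genes on chromosome 3. On chromosome 3, H3c14 (0.39) and H4c14 (-1.41) are neighbours among the genes with a probe. All 4 adjacent pairs of the 5 genes on chromosome 3 differed in sign.

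**Figure D2:**
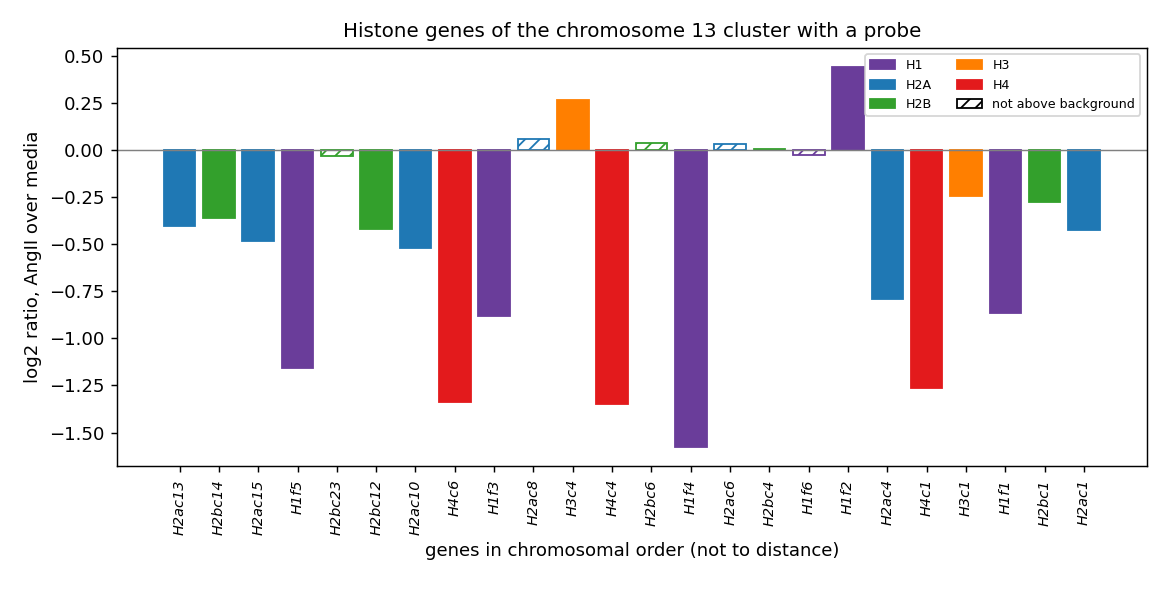
Bars give the mean log2 ratio of AngII over media over 4 arrays (y axis) for the 24 histone genes of chromosome 13 with a probe, in RefSeq order and not to distance (x axis), coloured by type and hatched where the probe was not above background. The H4 bars reach below -1.2 at separate places, and H3c4 (0.26) and H1f2 (0.44) stand above 0 among lower genes.

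Genes outside the clusters encode replacement variants, and 5 of 6 had means below 0. H1f0, a linker histone of resting and differentiated cells, had ratios of -0.36, -0.61, -0.40 and -0.67, with a mean of -0.51 ± 0.15. Its other probes gave -0.01 and 0.01, so the H1f0 ratio rests on 1 probe. H1f10, another replication-independent linker histone, had -0.004, -0.44, 0.07 and -0.61, with a mean of -0.25 ± 0.33. Of the variants with a mean below 0, H1f0 alone was lower on all 4 arrays.

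H3f3a and H3f3b encode the same protein, the variant H3.3, which is deposited outside replication. H3f3a had ratios of 0.07, -0.74, -0.09 and -0.997, with a mean of -0.44 ± 0.51, and its other probes had means of -0.39 and -0.34. Those other probes had 0.20, -0.86, 0.08 and -0.99, and 0.21, -0.83, 0.23 and -0.97. Both changed sign with the dye orientation, so their means carry no settled direction. H3f3b had 0.44, 0.48, 0.43 and 0.58, with a mean of 0.48 ± 0.07. Another probe above background gave 0.42 for H3f3b, and a dim probe gave 0.07. On each array H3f3b was above H3f3a, by more where AngII was in Cy3. H3f3b had the highest mean ratio by the brightest probe, and with probes averaged (0.326) it stood below H2bc21, H1f2 and H3c14.

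H2ax encodes the variant that is phosphorylated around DNA breaks, and its gene gives both stem-loop and polyadenylated transcripts. Its ratios were -0.77, 0.12, -0.75 and 0.09, with a mean of -0.33 ± 0.50, and the sign followed the dye orientation. H2az1 encodes H2A.Z, a variant found at promoters. It had 0.02, -0.38, -0.10 and -0.11, with a mean of -0.14 ± 0.17. The mean is smaller than this SD over the 4 arrays, and the SD between the 2 replicates was 0.06.

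Dye orientation is a measure the symbol rule does not use. The difference between orientations passed limma's adjusted p for 22 of the 29 histone genes, against 56.6% of features. The median size of the dye effect (the absolute value of the mean ratio with AngII in Cy5 minus that with AngII in Cy3, divided by 2) was 0.20 over the 29 genes and 0.10 over all features tested. Over the 29 clustered genes with a probe, the median ratio was -0.10 with AngII in Cy5 and -0.57 with AngII in Cy3. For H4 it was -1.07 and -1.66, and for H1 -0.73 and -0.65. Thus the H4 and H1 medians kept their sign and exceeded 1.5-fold in both orientations, while that of H2B was 0.04 with AngII in Cy5. Between the replicates no histone gene differed by more than 0.205, and 0 of 29 passed limma's adjusted p for that difference. None had an unadjusted p under 0.05 in the fit that leaves the dye effect in the residual. With the dye as a term 3 did, beside 5.12% of all features.

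**Figure D3:**
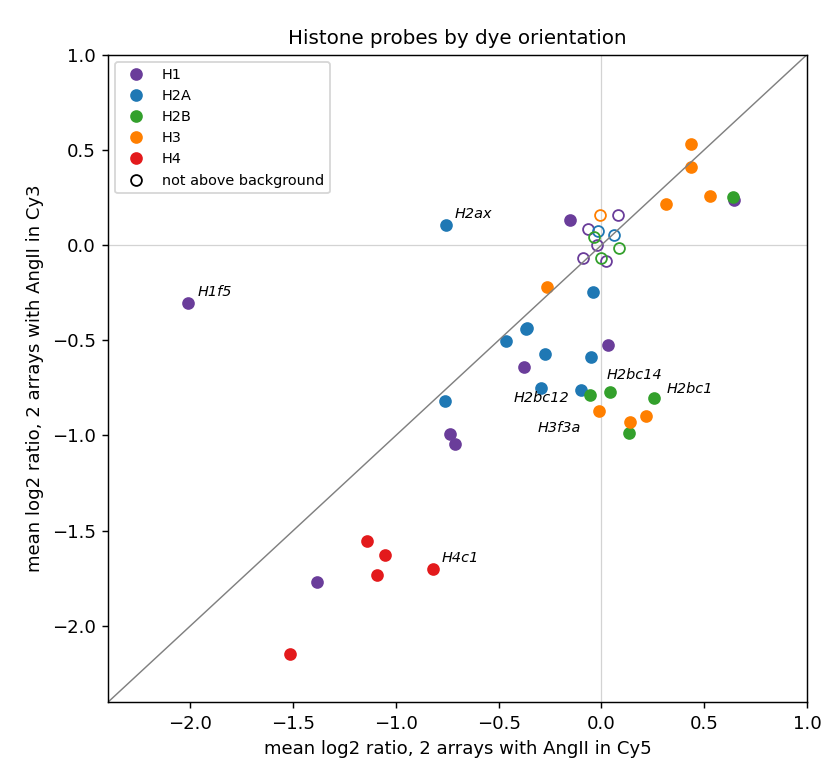
Each point is 1 of the 47 histone probes, at its mean log2 ratio of AngII over media on the 2 arrays with AngII in Cy5 (x axis) and on the 2 with AngII in Cy3 (y axis), coloured by type and open where not above background; the diagonal marks equal values. H4 points lie far from 0 on both axes, and the names mark the brightest probe of the genes farthest from the diagonal, with H1f5 at -2.01 and -0.31.

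Sequences before the start sites were compared by exact matches on either strand, in windows of 250 bases before to 50 after the start, which RefSeq gave for 32 of the 37 genes (33 windows). H2ax, H4c14, H2bc21, H3c1 and H2bc4 had no window in the table. CCAAT occurred in 87.9% of histone windows and in 37.4% of all 32851 windows. TATAAA occurred in 54.5% against 13.6%, and ATTTGCAT, the octamer read by Pou2f1, in 30.3% against 1.74%. ATTTGCAT was in none of the clustered H1, H3 and H4 windows.

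AAACACA was found in 5 of the 6 clustered H1 windows, against 7.18% of all windows, and ATTTGCAT in 5 of 9 clustered H2A and 4 of 6 clustered H2B windows. H1f4, H1f3, H1f5 and H1f2 hold AAACACA between 112 and 122 bases before the start and CCAAT between 51 and 54 bases before it. H1f2, with the opposite ratio, therefore has these elements where the lower genes H1f3, H1f4 and H1f5 have them. H1f1, also lower, has CCAAT at 56 bases before the start and no AAACACA match. The H1f2 window has no exact TATAAA match, and those of H1f1, H1f3, H1f4 and H1f5 have one between 26 and 33 bases before the start. The H1f2 stretch does hold tatatata after its CCAAT, which the exact search does not count. Whether it serves as a TATA box was not tested. GGTCCG occurred in the H4c4 and H4c6 windows, at 47 and 46 bases before the start, and in 8.25% of all windows. H4c1, with a like ratio, has none in its window. A match is a description of the letters, and binding was not measured.

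Genes that make and place histones were taken from lists that hold no member. In histone transcription and 3′ processing, limma called 10 of the 17 tested genes lower and 4 higher, and 3 did not pass, with Benjamini-Hochberg adjustment over all features. Of all features, 38.1% were called lower and 39.1% higher (77.2% in all). With the replicate number as a block on the 4 arrays, 4 genes of the list fell and 0 rose. In that fit 4641 of all 15006 features passed in either direction. The list's median log2 ratio was -0.16, beside a median near 0 over all features. Lsm11, a protein of the U7 particle, fell most, with -0.59, -1.24, -0.62 and -1.32, a mean of -0.94 and an adjusted p of 7.15e-20 in limma. Srrt, which links the cap to 3′ processing, had a mean of -0.74 and an adjusted p of 3.32e-16 in limma. Both were lower on all 4 arrays. Zfp473, which acts with the U7 particle, had a mean of -0.48 and Upf1, an RNA helicase that takes part in histone mRNA decay, -0.48. Ccne1, the S phase cyclin E1, had a mean of -0.27, from 0.003, -0.53, -0.09 and -0.48. It did not pass in limma on the arrays with AngII in Cy5 (adjusted p 0.498). Slbp itself had 0.32, 0.02, 0.24 and 0.09, with a mean of 0.17 and an adjusted p of 7.60e-05 in limma. It did not pass with the replicate block (adjusted p 0.183), with processed signals (0.402) or on the arrays with AngII in Cy3 (0.254). Npat, the coactivator of clustered histone transcription, was not among the genes tested.

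Histone chaperones, which carry histones to chromatin, fell in 20 of 26 tested genes and rose in 3, beside 38.1% and 39.1% of all features, and the median of the list was -0.20. With the replicate block 8 fell and 0 rose, and with processed signals 14 fell and 0 rose. Over all features, 4641 of 15006 passed with the block in either direction, and 9609 passed with processed signals. Rbbp4, a subunit of the CAF-1 complex and of several other chromatin complexes, had -1.31, -0.87, -1.41 and -0.84, a mean of -1.11 and an adjusted p of 1.57e-21 in limma, and its other probes gave -1.15 and -0.66. Chaf1a, the large CAF-1 subunit, had a mean of -0.95 and Tonsl, a reader of newly placed H4, -0.58. Hira, which places H3.3, had a mean of -0.86, with -0.29 and -0.06 on its other probes. Nasp, a carrier of H3 and H4 and of linker histone, had a mean of -0.58, with -0.75 on its other probe. These 5 genes were lower on all 4 arrays. The sizes overlap those of the clustered H1 and H2A genes. Among histone variants outside the symbol rule, H2aj (-0.37) and Macroh2a1 (-0.25) fell in limma, and Macroh2a2 (0.05) did not pass. H2aj and Macroh2a1 did not pass with the replicate block (adjusted p 0.109 and 0.0902) or on the arrays with AngII in Cy5 (0.0832 and 0.0526).

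Synthesis of clustered histones is coupled to DNA replication, so a replication list was set beside them. Of its 15 tested genes 10 fell and 1 rose, beside 38.1% and 39.1% of all features, 4 were not called, and the median was -0.23. With the replicate block 4 fell and 0 rose, where 4641 of all 15006 features passed in either direction. Mcm3 (-0.95) and Mcm5 (-0.57), subunits of the replicative helicase, and E2f1 (-0.52), a transcription factor of S phase entry, had the smallest p. E2f1 had -0.14, -0.99, -0.04 and -0.92 on the arrays. It did not pass in limma on the arrays with AngII in Cy5 (adjusted p 0.135). Of 5 proliferation markers, Cdk1 (-0.21), Top2a (-0.21) and Birc5 (-0.14) fell, Ccnb1 rose (0.12) and Mki67 (-0.06) did not pass. Other probes above background gave 0.05 for Top2a, -0.45 for Mki67, and 0.19 and 0.24 for Ccnb1. All these values were nearer to 0 than the H4 means.

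The list calls depended on how the replicate numbers entered. Over all 15006 features, 11592 (77.2%) passed by limma, and 4641 with the replicate number as a block. Of the 61 tested genes of the 4 lists, 50 passed by limma, a count not read as particular to the lists. With the replicate number as a block on the 4 arrays 16 passed, without replicate 1 also 16 and without replicate 2 10, and each of these fits leaves the dye effect in the residual. Slbp had an adjusted p of 0.551 and 0.509 in limma without replicate 1 and without replicate 2. Ccne1, with an adjusted p of 0.16 under the block, H2aj and Macroh2a1 did not pass in any of these 3 limma fits. Neither did the genes that rose: 0 passed in each list. E2f1 did not pass with the block or without replicate 2, and Nasp and Zfp473 did not pass without replicate 2. Lsm11, Srrt, Upf1, Rbbp4, Chaf1a, Hira, Tonsl, Mcm3 and Mcm5 passed in all 3.

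**Figure D4:**
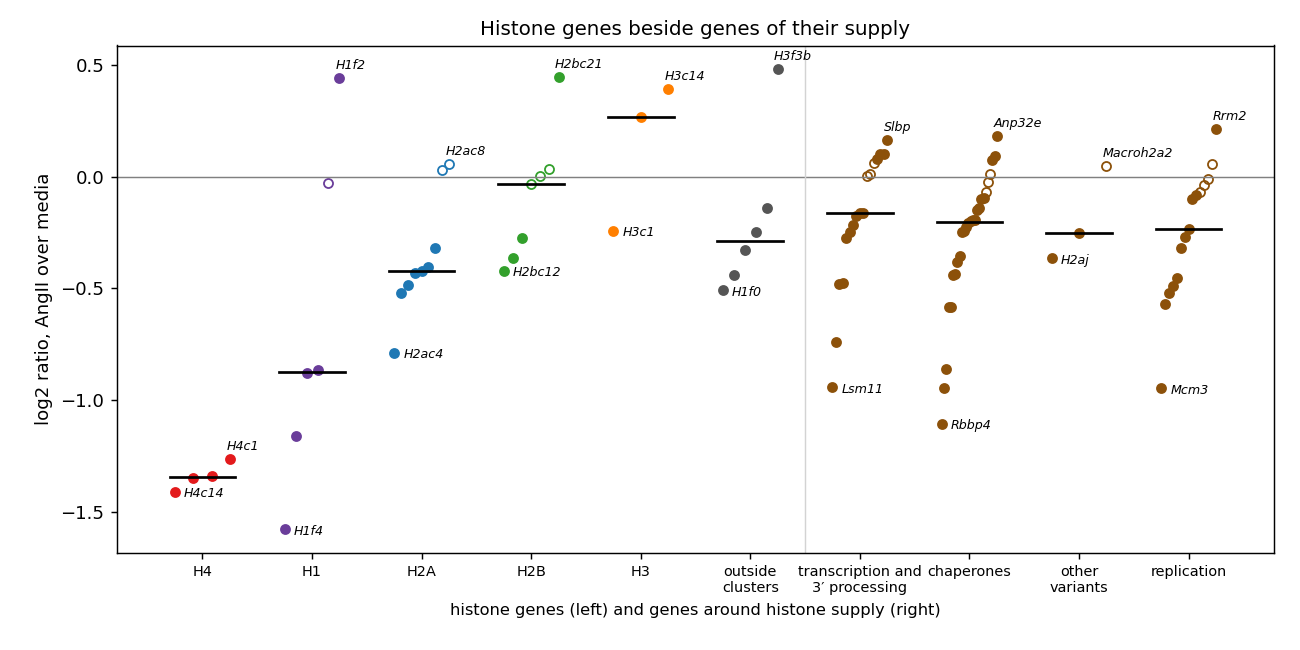
The mean log2 ratio of AngII over media over 4 arrays (y axis) for clustered histone genes by type and genes outside the clusters (left; open where not above background) and for tested genes of the 4 lists (right; open where limma did not call them), with a black bar at each median. The H4 and H1 medians (-1.34 and -0.87) lie below those of the lists, which run from -0.25 to -0.16.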

How the data were processed

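Per the file headers, the scanner software was Feature Extraction 10.5.1.1; the submitters' processing notes list limma. Each deposited intensity column holds spot or local background medians, or a processed intensity that Agilent's software corrected for background and dye, per the file headers. A log10 ratio of red over green was deposited too. The authors' deposited table holds a log2 ratio of AngII over media, adjusted p-values and a call used as a score; how it was normalised is not given in the sources used here.

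From the median intensities, log2 ratios were made in R 4.3.3 with limma 3.58.1: normexp with an offset of 50, loess within arrays with control spots at weight 0, outlier spots left out, dye-swapped arrays turned. Probes well above background in 1 channel's RNA on all 4 arrays were kept (19404 of 41174). The brightest probe stood for a gene. Ratios were averaged within a replicate number, and lmFit and eBayes tested the mean ratio against 0, at an adjusted p of 0.05 (Benjamini-Hochberg). The script was tested on simulated data. Names came from accessions matched to RefSeq on GRCm38.p6, which named 25097 probes; the array annotation is of another build, so the only coordinates given are those of RefSeq's promoter windows. Sequences are RefSeq's.

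Each array holds the AngII and media RNA of 1 number, so the ratio is the pairing, and the labels give these numbers. The members, lists and motifs were chosen with earlier results of these data known. Every histone gene above background is named; of each list the 5 genes with the smallest p (3 of the replication list), with Slbp and Npat. The number of arrays limits the precision. A planned comparison of histone proteins was not made.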

Additional observations from a re-analysis of the deposited data

Results flagged for a closer look

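For 3 of the 29 histone genes above background, the arrays of one dye orientation lay on one side of 0 and those of the other on the opposite side. H2ax had a mean log2 ratio of AngII over media of -0.76 with AngII in Cy5 and 0.11 with AngII in Cy3. H2bc1 had 0.26 with AngII in Cy5 and -0.80 with AngII in Cy3, and H2bc14 had 0.04 and -0.77. The difference between orientations had an adjusted p of 9.45e-06 for H2ax, 5.24e-06 for H2bc1 and 1.23e-05 for H2bc14 in limma, with both replicates on the same side in each orientation. Over all features tested, 21.7% changed sign with the orientation. The largest dye effect of a histone gene was that of H1f5, at -0.85, without a change of sign.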

How the results depend on the processing

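The median log2 ratio over clustered histone genes (-0.40) was -0.47 with Agilent's processed signals, -0.31 with arrays centred on the median, -0.38 with probes of a gene averaged, -0.43 with the stricter filter, -0.10 on the arrays with AngII in Cy5, -0.57 on those with AngII in Cy3, and -0.36 in the authors' deposited table. Leaving out a replicate number gave -0.37 to -0.36. For genes outside the clusters (-0.29) these were -0.32 with processed signals, -0.23 with centred arrays, -0.21 with probes averaged, -0.0261 with AngII in Cy5 and -0.38 with AngII in Cy3. Signs turned only with the orientation: the H2B median was 0.0425, H1f10 0.0314, H2bc1 0.26 and H2bc14 0.0425 on the arrays with AngII in Cy5, and H2ax was 0.11 on those with AngII in Cy3. The count of features called (11592) was 4641 with the replicate block and 2219 to 2938 without a replicate number, and that of list members (50) was 16 with the replicate block and 10 to 16 without a replicate number. The H2B median (-0.03) was -0.32 with the stricter filter and -0.34 with processed signals. The H1 median (-0.87) was -1.35 with processed signals, beside -1.42 for H4. It was -0.99 in the authors' deposited table and -0.62 with probes averaged. With processed signals 0 members of the lists rose, at a median over all features of -0.06. No spot was saturated, so leaving saturated spots out was not run. The 8 dim genes were not above background, so their ratios near 0 are not read as measured. Of them, 6 enter the clustered median. No setting replaces an independent RNA pair.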
